A study of Homo sapiens with 6 samples.

Results

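Lowering METTL3 in K562 cells by shRNA was followed across functional classes, gene families and biotypes, by comparing the shMETTL3 libraries with the shCTR libraries gene by gene. K562 is an established human line from the pleural effusion of a chronic myeloid leukemia in blast crisis. The 2 shMETTL3 libraries came from cells carrying a lentiviral hairpin against METTL3 and the 2 shCTR libraries from cells carrying a nonsense hairpin. All 4 shared the same medium with serum and antibiotics and were collected in logarithmic growth. The lentiviral vectors of both lines carried GFP and a puromycin marker, and the study reports selection of infected cells with puromycin. The labels name no other allele or agent. By the study's methods each group is 1 pooled transduced line with 1 hairpin, so line and hairpin cannot be told apart from the lowering of METTL3, and nothing says that the replicates came from separate transductions. p-values here measure only the spread between these libraries, which may be technical. Of the 61661 gene identifiers in the table, 17686 held enough reads to be tested (about 10 reads or more in the libraries of at least 1 group), and they are the members described here. The other 43975 fell below the filter, 27118 of them with no read in any of the 4 libraries. The 2 shMETTL14 libraries of the series entered only the filter on low counts, the scaling and the estimate of the spread.

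METTL3 is the catalytic subunit of the complex that writes N6-methyladenosine (m6A) on messenger RNA, with METTL14 as its partner and WTAP as an adaptor. The mark is read by proteins such as YTHDF2, which leads marked RNA to decay, and it is removed by FTO and ALKBH5. In leukemia cells it is known for acting on the stability and translation of RNAs of growth and differentiation genes. The hairpin stem listed by the study is shown because it defines the group: it matches 5 METTL3 transcripts of GENCODE 29 and no transcript of another gene. Its target lies on the minus strand of GRCh38 at chr14:21501844-21501864, in the coding sequence of exon 4 of 11.
METTL3 stem: gccaaggaacaatccattgtt
Reads are given below as deposited, with shCTR replicates 1 and 2 first and, after the word against, shMETTL3 replicates 1 and 2. METTL3 had 1788 and 1728 reads against 1031 and 938, with no overlap between the groups (log2 fold change -0.87 ± 0.08, SE, adjusted p = 3.44e-07 in edgeR's quasi-likelihood test).

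Library totals ran from 19292574 to 20115304 counts. Among the libraries shCTR replicate 1 stood apart: a trend on GC content and transcript length explained 12.9% of the variance of its levels around the mean of all libraries, against 0.32% to 5.44% in the other 5, so that values without it or with the trend removed are given where they change a result. Markers of other cell types were few, with 4 of 20 T and NK cell, 2 of 14 B cell and 2 of 16 fibroblast and endothelial markers above the filter and LCK, MS4A1 and CDH5 at 0 reads in all 4 libraries. Their summed levels were 6.99 and 8.47 CPM (read counts scaled to a common library total with TMM factors) in the shCTR libraries and 9.63 and 10.0 CPM in the shMETTL3 libraries for T and NK cell markers, and 3.90 and 3.40 against 8.56 and 7.49 CPM for fibroblast and endothelial markers. Epithelial markers had 9 of 15 above the filter, sums of 518 and 543 against 416 and 439 CPM, and CDH1 at 0. Genes that mark K562, such as the embryonic globins and GATA1, were all above the filter, 16 of 16, with sums of 2810 and 2829 against 3068 and 3117 CPM. The part of these sums in the results was not tested. In bulk RNA, fewer cells of a kind and less RNA per cell cannot be told apart.

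At an adjusted p under 0.05 (Benjamini-Hochberg, over all genes tested) 2912 genes were called, 16.5% of those tested, with 1544 higher (8.73%) and 1368 lower (7.73%) in shMETTL3 cells. Scaling by library size alone gave 17.1% called and turned the split to 2161 higher (12.2%) and 855 lower (4.83%). With the trend on GC content and length removed, 19.5% were called, 1631 higher (9.22%) and 1812 lower (10.2%). The number of calls depended on the library left out: 2117 (12%, with 6.08% higher and 5.89% lower) without shCTR replicate 1, 3504 (19.8%, with 10.2% and 9.65%) without shCTR replicate 2, 1560 (8.82%, with 5.06% and 3.76%) without shMETTL3 replicate 1 and 1144 (6.47%, with 3.97% and 2.49%) without shMETTL3 replicate 2. Of the 2912, 833 stayed called with each of the 4 libraries left out in turn, 515 of them higher and 318 lower. A gene given below with its reads as higher or lower is one of those 833 unless a p-value without a library stands beside it, and in such a gene the CPM of the shCTR and shMETTL3 libraries did not overlap. Most counts of called members of a list are followed, in parentheses, by their lowest and highest number with 1 library left out. The lowest came without a shMETTL3 library in nearly every list so described, and in a few lists without shCTR replicate 1 as well. Of the gene lists examined, 59 held more members higher than lower and 35 more lower than higher.

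**Figure D1:**
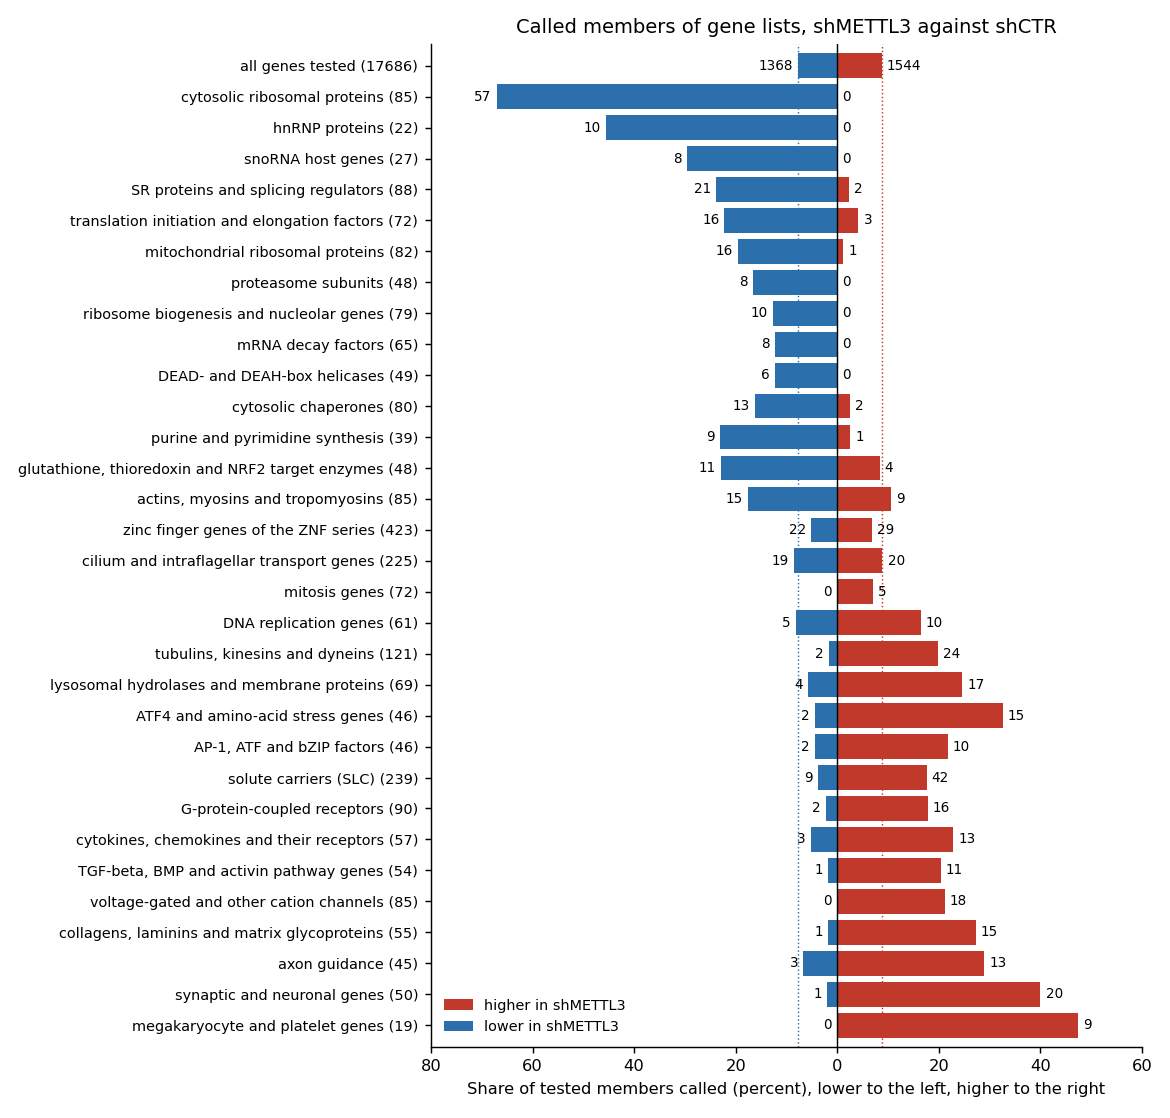
Share of the tested members of 31 gene lists, and of all genes tested, that were called higher (right, red) or lower (left, blue) in shMETTL3 cells, in percent of the members tested, with the number called at each bar's end, the number tested after each name and dotted lines at the shares over all genes. Cytosolic ribosomal proteins had 57 of 85 members lower and none higher, while megakaryocyte and platelet genes had 9 of 19 higher and none lower.

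The clearest lower group was the cytosolic ribosome. Ribosomal protein genes code for the protein part of the machine that translates messenger RNA, and 57 of 85 were lower with none higher, at a median log2 fold change of -0.20 against 0.0030 over all genes tested. No member was higher with any library left out, while the number lower was 66 without shCTR replicate 1, 43 without shCTR replicate 2, 18 without shMETTL3 replicate 1 and 14 without shMETTL3 replicate 2. RPS29, of the small subunit, had 9092 and 8463 reads against 6701 and 7186 (log2 fold change -0.37 ± 0.06, adjusted p = 0.000176). RPS13 had 15129 and 13876 reads against 11656 and 11378 (-0.36 ± 0.06, adjusted p = 0.000198). Both genes were lower in each shMETTL3 library than in either shCTR library, and no called member had a log2 fold change beyond -0.37. RPL3, a member with many more reads, had 69812 and 72346 reads against 61626 and 62704 (-0.22 ± 0.05), with an adjusted p of 0.00532 that became 0.0755 without shMETTL3 replicate 1 and 0.0981 without shMETTL3 replicate 2.

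Abundant genes as a whole had lower values, so members were set beside other protein-coding genes of the same quintile of mean CPM (5 groups of equal size). Of the 73 ribosomal protein genes in the highest quintile, 51 were lower, at a median of -0.20, while 19.1% of the 2432 other genes of that quintile were lower, at a median of -0.07. With the trend on GC content and length removed 60 of 85 were lower, and with library size as the only scaling 35 of 85.

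Messenger RNAs of ribosomal proteins and translation factors are known to begin with a run of pyrimidines, the 5′ terminal oligopyrimidine motif, through which growth signaling controls their translation and stability. The annotated first bases of the called genes of highest CPM are shown to let this run be read: 10 bases before and 20 from the RefSeq start (GRCh38.p14), with the uninterrupted run of C and T from a first C in capitals. They are those 8 of the 15 called genes of highest CPM that had an entry in the RefSeq table, chosen after their values were seen. All 15 were lower in the fit with all libraries, but only 2 of them, HNRNPA1 and NPM1, stayed called with each library left out.
EEF1A1, chr6:73521013-73521042, minus strand: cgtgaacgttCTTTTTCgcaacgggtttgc
RPL3, chr22:39319604-39319633, minus strand: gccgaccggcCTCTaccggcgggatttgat
RPS18, chr6:33272065-33272094, plus strand: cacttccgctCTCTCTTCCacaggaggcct
RPS3, chr11:75399508-75399537, plus strand: cgagccacttCCTTTCCTTTCagcggagcg
RPL7A, chr9:133348208-133348237, plus strand: attccctttcCTTTCTCTCTCCTCCCgccg
RACK1, chr5:181243887-181243916, minus strand: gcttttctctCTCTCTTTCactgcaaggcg
NPM1, chr5:171387839-171387868, plus strand: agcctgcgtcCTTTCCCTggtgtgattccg
RPL10, chrX:154398055-154398084, plus strand: ccactctcagaaatatacgtctgtcacagt
The run reached 5 bases or more in 6 of the 8, was 4 bases long in RPL3 and was missing in RPL10. A C at the start followed by at least 4 further C or T, read on the transcribed strand, stood at 4.04% of the 27305 promoters in the RefSeq table. It was found in 67.2% of the 67 ribosomal protein genes with an entry, in 21.8% of the 55 translation factors and in 5.47% of the 10183 tested protein-coding genes. Among ribosomal protein genes, 33 of 45 with the run and 13 of 22 without it were lower. Outside the ribosome, in the highest quintile of CPM, 39 of 159 genes with the run were lower (24.5%, median -0.10) and 347 of 1895 without it (18.3%, median -0.06). The run is a description of the annotated RefSeq starts, which were not checked against the starts used in these cells. The difference between the shares was not tested.

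Translation factors shared the direction. Of 72 initiation and elongation factors tested, 16 were lower (4 to 17 with 1 library left out) and 3 higher, at a median of -0.08. EEF1A1, which brings aminoacyl-tRNA to the ribosome, had 418003 and 416674 reads against 371042 and 371955 (-0.20 ± 0.04, adjusted p = 0.00492, and 0.0779 and 0.143 without shMETTL3 replicate 1 or 2). EEF1B2, its nucleotide exchange factor, had 7426 and 7505 reads against 5959 and 6049 (-0.34 ± 0.06, adjusted p = 0.000387), and EIF3M, a subunit of the eIF3 complex, had 6134 and 6046 reads against 5004 and 4943 (-0.32 ± 0.06). These 3 genes had no shMETTL3 library at or above a shCTR library. EEF1A2, the paralog of EEF1A1 found mainly in muscle and neurons, went the other way, with 1745 and 1999 reads against 2492 and 2492 (0.38 ± 0.07, adjusted p = 0.00129). Genes of ribosome assembly and the nucleolus had 10 of 79 lower and none higher (1 to 15 lower, 5 without shCTR replicate 1), among them NPM1, a nucleolar chaperone, with 35292 and 33479 reads against 27855 and 28716 (-0.31 ± 0.05, adjusted p = 0.000284). Mitochondrial ribosomal proteins had 16 of 82 lower and 1 higher (1 to 11 lower with 1 library left out), but in the highest quintile of CPM their median was -0.06 against -0.07 in other genes, and in the fourth -0.04 against -0.03.

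RNA-binding and splicing genes were the other lower group. Heterogeneous nuclear ribonucleoproteins (hnRNPs) coat nascent transcripts and steer splicing, and 10 of 22 were lower with none higher (2 to 12 lower with 1 library left out, 2 without shMETTL3 replicate 2), at a median of -0.17. HNRNPA1 had 65119 and 63824 reads against 52751 and 54077 (-0.30 ± 0.05, adjusted p = 0.000262). HNRNPC, which binds uridine runs and is counted among the indirect readers of m6A, had 17730 and 16449 reads against 14336 and 14651 (-0.27 ± 0.05, adjusted p = 0.00182). In both genes the shMETTL3 libraries lay below the shCTR libraries. Of 88 SR proteins and splicing regulators, 21 were lower and 2 higher (3 to 23 lower with 1 library left out, 3 without shMETTL3 replicate 2). SRSF2, an SR protein mutated in myeloid disease, had 3882 and 3491 reads against 2840 and 2384 (-0.52 ± 0.08, adjusted p = 9.97e-05), the largest fall of the list among the genes that met the naming rule. MBNL1, which favours adult splice forms, had 4223 and 3635 reads against 2832 and 2946 (-0.47 ± 0.07), and RBM28, a nucleolar RNA-binding protein, had 2839 and 2609 reads against 2193 and 2086 (-0.38 ± 0.06). SRRM3, a splicing factor of neuronal microexons, was higher, with 84 and 102 reads against 184 and 184 (0.95 ± 0.17, adjusted p = 0.000596).

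Several further RNA classes held only lower calls. Messenger RNA decay factors had 8 of 65 lower (3 to 17, the latter without shCTR replicate 2), led by TOB1 with 962 and 901 reads against 698 and 734 (-0.41 ± 0.07) and BTG1 with 2489 and 2489 reads against 1834 and 2008 (-0.40 ± 0.07), both antiproliferative proteins that recruit deadenylases. SKIC3, a subunit of the SKI complex that feeds the exosome, had 3702 and 3197 reads against 2750 and 2604 (-0.39 ± 0.07, adjusted p = 0.000507). DEAD- and DEAH-box helicases had 6 of 49 lower (2 to 12, the latter again without shCTR replicate 2), and snoRNA host genes 8 of 27 (2 to 6). SNHG29 had 7551 and 7896 reads against 6353 and 6637 (-0.28 ± 0.06) and MIR17HG, the host of an oncogenic microRNA cluster, 1348 and 1220 reads against 994 and 990 (-0.40 ± 0.08, adjusted p = 0.00123). The share lower in the decay and helicase lists was 12.3% and 12.2%, beside the 9.12% of all protein-coding genes tested.

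Of the other m6A genes, METTL14 had 656 and 655 reads against 752 and 710 (log2 fold change 0.13 ± 0.08, adjusted p = 0.32), WTAP 1302 and 1328 reads against 1150 and 1225 (-0.18 ± 0.07, adjusted p = 0.0808), FTO 570 and 543 reads against 628 and 632 (0.15 ± 0.09, adjusted p = 0.268) and YTHDF2 1586 and 1537 reads against 1601 and 1564 (adjusted p = 0.941), and none of these 4 passed the test. ALKBH5 was higher, with 870 and 954 reads against 1095 and 1118 (0.25 ± 0.07, adjusted p = 0.0264), a call lost without shCTR replicate 1 (adjusted p = 0.154) and without shMETTL3 replicate 1 or 2 (0.127 and 0.154). Of 13 erasers and readers tested 1 was higher and 3 were lower (23.1%, beside the 7.73% of all genes tested), with 0 to 1 and 1 to 6 when 1 library was left out. The lower members were the RNA-binding proteins HNRNPC, given above, RBMX and HNRNPA2B1. RBMX had 12123 and 11340 reads against 10369 and 10174 (-0.22 ± 0.06, adjusted p = 0.00928, and 0.0527 and 0.165 without shMETTL3 replicate 1 or 2). HNRNPA2B1 had 27810 and 25824 reads against 24022 and 24483 (-0.17 ± 0.05, adjusted p = 0.0324, and 0.113, 0.182 and 0.222 without shCTR replicate 1, shMETTL3 replicate 1 or shMETTL3 replicate 2). METTL3 was the only called member of the 8 writer genes.

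**Figure D2:**
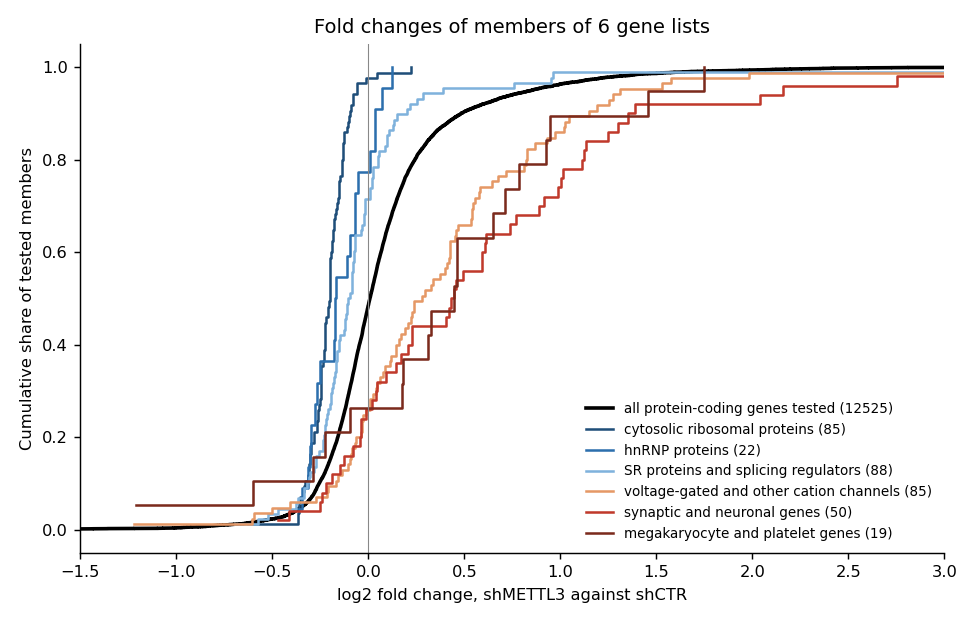
Cumulative share of tested members (vertical axis) at or below each log2 fold change of shMETTL3 against shCTR (horizontal axis), for all protein-coding genes tested (black) and for 6 lists, with the number tested after each name. The curves of ribosomal proteins, hnRNPs and splicing regulators (blue, medians -0.20, -0.17 and -0.10) lie to the left of all protein-coding genes, and those of cation channels, synaptic genes and platelet genes (orange to dark red, medians 0.28, 0.44 and 0.45) to the right.

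Lists of genes best known from excitable and adhesive cells held more members higher than lower. Synaptic and neuronal genes, which serve vesicle release and axonal transport and are not known as blood cell genes, had 20 of 50 members higher and 1 lower (15 to 18 higher with 1 library left out), at a median of 0.44. KIF1A, a kinesin that carries synaptic vesicle precursors, had 18 and 29 reads against 138 and 187 (2.75 ± 0.25, adjusted p = 3.51e-07), the second largest rise of any protein-coding gene that met the naming rule. UNC13A, which primes vesicles for release, had 78 and 111 reads against 250 and 256 (1.39 ± 0.16). SYT3, a calcium sensor of exocytosis, had 26 and 34 reads against 76 and 70 (1.25 ± 0.25, adjusted p = 0.00167). Every shMETTL3 library was above every shCTR library in these 3 genes. SCG3, a granin of secretory granules with more reads, had 1410 and 1461 reads against 2101 and 1824 (0.42 ± 0.08). The only lower member, the adaptor APBA2, had 1464 and 1534 reads against 1263 and 1362 (-0.22 ± 0.07, adjusted p = 0.0312, and 0.106, 0.225 and 0.1 without shCTR replicate 2, shMETTL3 replicate 1 or shMETTL3 replicate 2).

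Genes of low CPM were more often higher in general, so the synaptic genes were set beside others of their quintile. In the lowest quintile of CPM 10 of 23 synaptic genes were higher, at a median of 0.99, against 14.2% of the 2482 other genes, at a median of 0.25. In the second quintile 7 of 14 were higher, at a median of 0.34, against 14.5% and 0.07. Cation channels had 6 of 46 higher in the lowest quintile, against 14.5% of other genes, and 8 of 22 in the second, also against 14.5%.

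Ion channels and transporters leaned higher. Voltage-gated and other cation channels had 18 of 85 higher and none lower (10 to 21 higher with 1 library left out), at a median of 0.28, although 5 came out lower once the GC and length trend was removed. SCN4A, a voltage-gated sodium channel of skeletal muscle, had 142 and 149 reads against 365 and 343 (1.25 ± 0.13, adjusted p = 1.71e-06). KCNMB4, a subunit of the calcium-activated potassium channel, had 41 and 35 reads against 95 and 98 (1.31 ± 0.23), and ORAI2, a store-operated calcium channel, 791 and 788 reads against 1162 and 1190 (0.55 ± 0.07, adjusted p = 2.49e-05). The 3 channels differ widely in reads but each was separate between groups. MCOLN3, an endolysosomal cation channel, rose from the lowest of these levels, with 20 and 16 reads against 88 and 88 (2.25 ± 0.26). Solute carriers had 42 of 239 higher and 9 lower (16 to 50 higher, 19 without shCTR replicate 1). Among them SLC41A2, a magnesium transporter, had 19 and 16 reads against 59 and 47 (1.56 ± 0.30), SLC7A1, an arginine transporter, 3315 and 3137 reads against 4038 and 4423 (0.36 ± 0.06) and SLC7A8, a transporter of neutral amino acids, 201 and 235 reads against 114 and 114 (-0.97 ± 0.14, adjusted p = 0.00012). AQP3, a water and glycerol channel, had 1190 and 1250 reads against 1913 and 2018 (0.66 ± 0.07, adjusted p = 1.79e-06). ABCG2, a drug efflux pump of stem cells, was lower, with 345 and 312 reads against 169 and 176 (-0.96 ± 0.11, adjusted p = 9.56e-06).

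Matrix and adhesion genes followed. Collagens, laminins and matrix glycoproteins had 15 of 55 higher and 1 lower (11 to 14 higher with 1 library left out), at a median of 0.20. COL6A1, a chain of collagen VI, had 36 and 49 reads against 204 and 188 (2.17 ± 0.20, adjusted p = 3.44e-07). FN1, fibronectin, had 983 and 755 reads against 2050 and 1587 (1.04 ± 0.11, adjusted p = 2.43e-06) and LAMC1, a laminin chain, 69 and 67 reads against 150 and 157 (1.14 ± 0.18). In all 3 the lower shMETTL3 library lay well above the higher shCTR library. TNXB, a tenascin with a partial pseudogene copy beside it, had 49 and 44 reads against 158 and 145 (1.67 ± 0.19), and COL15A1 was the lower member, with 1118 and 979 reads against 825 and 738 (-0.45 ± 0.08). Integrins had 5 of 19 higher and none lower (2 to 4 higher, 3 without shCTR replicate 1), and cadherins 6 of 28 and none lower (3 to 4). ITGA7, a laminin receptor, had 49 and 41 reads against 100 and 107 (1.17 ± 0.21), and CLSTN1, a calsyntenin, 863 and 858 reads against 1398 and 1338 (0.64 ± 0.07, adjusted p = 3.46e-06). SDC3, a heparan sulfate proteoglycan, had 913 and 922 reads against 1564 and 1490 (0.71 ± 0.07) and its family member SDC2 829 and 766 reads against 618 and 627 (-0.39 ± 0.08), so that the syndecans went in opposite directions. Tetraspanins and CD antigens had 15 of 55 higher and 8 lower (6 to 14 higher, 8 without shCTR replicate 1). TSPAN33, a tetraspanin of erythroid progenitors and B cells, had 26 and 33 reads against 123 and 132 (2.08 ± 0.22) and TSPAN18 171 and 177 reads against 467 and 560 (1.53 ± 0.12). CD47, the signal against phagocytosis, was lower, with 3366 and 3135 reads against 2595 and 2688 (-0.33 ± 0.06, adjusted p = 0.00105). SERPINH1, the chaperone of collagen folding, was also lower while collagen VI was higher, with 2498 and 2482 reads against 1330 and 1248 (-0.98 ± 0.07, adjusted p = 9.45e-09). The sum of fibroblast and endothelial markers, given above, was higher in the same libraries with 2 of 16 markers tested, and its part in the matrix genes was not tested.

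Several signaling families also held more members higher than lower. G-protein-coupled receptors had 16 of 90 members higher and 2 lower (4 to 18 higher with 1 library left out, 4 without shMETTL3 replicate 2). Beside other genes of their own level the receptors did not stand out at low CPM, with 6 of 51 higher in the lowest quintile against 14.5% of other genes and 2 of 17 in the second against 14.7%, while 5 of 11 were higher in the middle quintile against 10.5%. The lower receptor that met the naming rule and held throughout was FZD4, a Wnt receptor, with 1264 and 1171 reads against 820 and 778 (-0.64 ± 0.07, adjusted p = 5.51e-06). Downstream, ADCY6, an adenylyl cyclase, had 166 and 146 reads against 536 and 612 (1.85 ± 0.12, adjusted p = 2.46e-09) and AKAP12, an anchor of protein kinase A, 69 and 40 reads against 288 and 305 (2.41 ± 0.19, adjusted p = 6.37e-08). In both genes the lower shMETTL3 library had over 3 times the reads of the higher shCTR library. The balance of axon guidance genes depended on the fit, with 9 higher and 7 lower of 45 once the GC and length trend was removed. In the lowest quintile of CPM, which held 23 of the 45, 14.5% of protein-coding genes were higher. Axon guidance genes had 13 of 45 higher and 3 lower (6 to 10 higher, 7 without shCTR replicate 1), among them the netrin receptor UNC5B with 362 and 376 reads against 734 and 632 (0.86 ± 0.10) and the semaphorin co-receptor NRP2 with 65 and 76 reads against 169 and 175 (1.25 ± 0.18), while PLXNB1, a plexin, was lower, with 913 and 875 reads against 682 and 737 (-0.36 ± 0.07).

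Notch and Hedgehog genes had 10 of 36 higher and 1 lower (6 to 9 higher with 1 library left out). The ligand JAG1 had 48 and 43 reads against 123 and 105 (1.29 ± 0.20), the receptors NOTCH2 18 and 27 reads against 60 and 59 (1.37 ± 0.28) and NOTCH3 41 and 39 reads against 92 and 86 (1.12 ± 0.22), and the target HEYL 49 and 48 reads against 123 and 137 (1.39 ± 0.19, adjusted p = 5.3e-05). HEY1, another target, had 95 and 89 reads against 211 and 195 (1.11 ± 0.17). These genes were given from the members called higher, each at low read numbers, so their shared direction follows from that choice. Of the 36 members tested 25 were not called. TGF-beta, BMP and activin genes had 11 of 54 higher and 1 lower (5 to 15 higher with 1 library left out). GDF15, a secreted stress cytokine, had 6015 and 6550 reads against 13009 and 13347 (1.04 ± 0.06, adjusted p = 1.13e-09), TGFB1 2908 and 3278 reads against 4096 and 4624 (0.46 ± 0.07) and the inhibitory SMAD6 207 and 218 reads against 304 and 345 (0.58 ± 0.12). Growth factors and receptor tyrosine kinases were divided, with 10 higher and 6 lower of 45 (4 to 9 and 5 to 6). PDGFB had 591 and 660 reads against 1083 and 1383 (0.95 ± 0.10, adjusted p = 1.85e-06), while the EGF receptor ligands AREG and EREG were lower, with 433 and 346 reads against 253 and 233 (-0.71 ± 0.12) and 2849 and 2022 reads against 1566 and 1630 (-0.63 ± 0.10).

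Among cytoskeletal genes, the tubulin list held more members higher than lower, and the balance of the actin list depended on the fit. The median of the actin list was -0.04, and 0.0087 without shCTR replicate 2. In the highest quintile of CPM, which held 36 of its 85 members, 20.6% of protein-coding genes were lower. Tubulins, kinesins and dyneins had 24 of 121 higher and 2 lower (13 to 23 higher with 1 library left out), with 12 lower once the GC and length trend was removed, and TTLL7, a tubulin polyglutamylase, had 164 and 110 reads against 459 and 413 (1.64 ± 0.14, adjusted p = 1.35e-07). Actins, myosins and tropomyosins had 15 of 85 lower and 9 higher (5 to 15 lower with 1 library left out), although 15 were higher and 10 lower with library size as the only scaling. ACTG1, cytoplasmic gamma actin, had 16065 and 16633 reads against 11652 and 12857 (-0.45 ± 0.06, adjusted p = 2.49e-05), whereas SCIN, an actin-severing protein of megakaryocytes and secretory cells, had 90 and 99 reads against 309 and 276 (1.60 ± 0.14, adjusted p = 1.62e-07) and MYO1F, a myosin of leukocytes, 109 and 111 reads against 273 and 250 (1.22 ± 0.14). VAV1, an exchange factor found in blood cells, was lower, with 161 and 134 reads against 69 and 81 (adjusted p = 0.000978). Among 225 cilium genes tested 20 were higher and 19 lower (8 to 21 and 6 to 24), and CFAP95, a cilium-associated protein, had 171 and 198 reads against 762 and 814 (2.06 ± 0.12, adjusted p = 8.22e-10), the largest change of that list among the genes that met the naming rule.

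**Figure D3:**
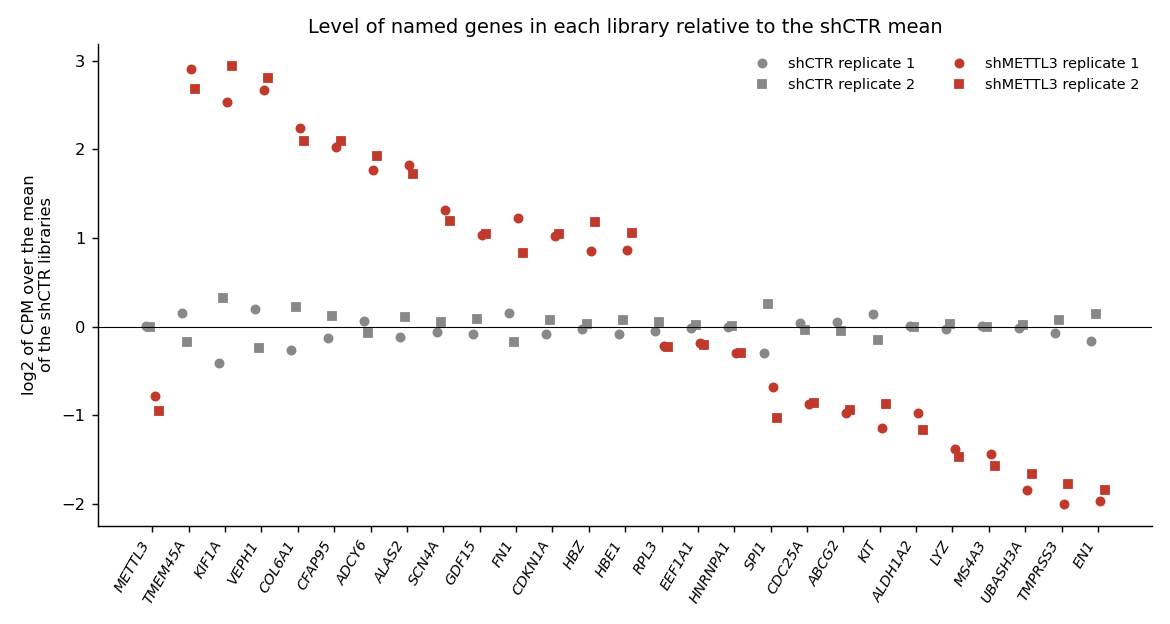
Level of 27 named genes in each of the 4 libraries as log2 of CPM over the mean of the shCTR libraries (vertical axis), with shCTR in grey, shMETTL3 in red, replicate 1 as circles and replicate 2 as squares. TMEM45A, with 13 and 10 reads against 87 and 76, stands highest, EN1, with 60 and 72 reads against 17 and 19, lowest, and the 2 groups do not overlap in any of the genes shown.

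Among lists of the blood lineages, platelet and globin genes held only higher calls, and red cell surface genes were divided. Megakaryocyte and platelet genes had 9 of 19 higher and none lower (6 to 9 higher with 1 library left out), at a median of 0.45. TUBB1, the tubulin of platelets, had 88 and 84 reads against 235 and 248 (1.46 ± 0.14, adjusted p = 1.01e-06). ITGA2B, the alpha chain of the fibrinogen receptor, had 227 and 254 reads against 441 and 405 (0.78 ± 0.11) and SPARC 224 and 260 reads against 455 and 483 (0.92 ± 0.11). All 3 were higher in each shMETTL3 library than in either shCTR library. In the lowest quintile of CPM 1 of 7 platelet genes was higher, at a median of -0.10, against 14.5% of other genes, at 0.26. In the second quintile 4 of 8 were higher, at a median of 0.58, against 14.6% and 0.07. Globin genes had 4 of 9 higher in the fit with all libraries and in each fit without 1 library, and HBE1, the embryonic epsilon globin, had 3904 and 4214 reads against 7485 and 8685 (0.96 ± 0.07, adjusted p = 1.64e-08). ALAS2, the first enzyme of heme synthesis in red cells, had 274 and 309 reads against 1040 and 996 (1.77 ± 0.09, adjusted p = 3.2e-10), the only called gene of 9 in that pathway. Red cell surface genes were divided, with 8 higher and 7 lower of 29 (6 to 8 and 2 to 8). BCAM, the Lutheran antigen, had 353 and 379 reads against 695 and 689 (0.89 ± 0.09) and RHCE, of the Rh antigens, 111 and 132 reads against 258 and 268 (1.08 ± 0.14, with its paralog RHD a possible source of shared reads), while XK had 5042 and 4486 reads against 3621 and 3954 (-0.36 ± 0.06, adjusted p = 0.000659).

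The genes given first here were lower, though not all belong to the list of progenitor and myeloid markers. That list had 3 of 14 lower and 2 higher, at a median of 0.16. The median ran from 0.10 to 0.16 with 1 library left out. KIT, the stem cell factor receptor, had 283 and 223 reads against 115 and 142 (-1.01 ± 0.15, adjusted p = 0.000104). SPI1, which codes for the myeloid factor PU.1, had 241 and 342 reads against 184 and 147 (-0.85 ± 0.16, adjusted p = 0.00117). LYZ, lysozyme, had 830 and 840 reads against 324 and 310 (-1.43 ± 0.09, adjusted p = 1.39e-09), with both shMETTL3 libraries under the lower shCTR library by more than 2-fold. MS4A3, a surface protein of granulocyte progenitors, had 1050 and 1004 reads against 382 and 355 (-1.51 ± 0.08, adjusted p = 7.99e-10), HCLS1, a hematopoietic substrate of LYN, 32 and 40 reads against 11 and 10 (-1.80 ± 0.36) and LGALS12, a galectin of myeloid cells and fat, 42 and 48 reads against 16 and 11 (-1.76 ± 0.33). UBASH3A, a suppressor of lymphocyte receptor signaling, had 635 and 630 reads against 178 and 206 (-1.75 ± 0.10, adjusted p = 1.13e-09). The list of 14 progenitor and myeloid markers tested also held 2 higher genes, CEBPB with 1592 and 1661 reads against 1946 and 2146 (0.30 ± 0.07, adjusted p = 0.00508, and 0.113 without shMETTL3 replicate 2) and CEBPD with 292 and 328 reads against 425 and 413 (0.40 ± 0.10, and an adjusted p of 0.0904 and 0.0905 without shCTR replicate 1 or shMETTL3 replicate 1), so it did not move in 1 direction. Genes that mark leukemia lines with rearranged MLL had 7 of 14 above the filter, 4 of them lower, with sums of 276 and 264 against 234 and 207 CPM and with HOXA9 and FLT3 at 0.

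Lineage transcription factors were as divided, with 5 higher and 5 lower of 27 (3 to 8 and 2 to 5). KLF1, which drives red cell genes, had 2538 and 2990 reads against 3580 and 3690 (0.36 ± 0.07, adjusted p = 0.00221) and ZFPM1, the partner of GATA1, 518 and 647 reads against 792 and 923 (0.53 ± 0.10). RUNX1 had 1345 and 1293 reads against 1068 and 1069 (-0.33 ± 0.07, adjusted p = 0.00181) and MEIS1, a cofactor of HOX proteins in progenitors, 195 and 178 reads against 101 and 119 (-0.79 ± 0.15). GATA1 itself had 5137 and 5650 reads against 5705 and 6032 (adjusted p = 0.374) and TAL1 2512 and 2579 reads against 2414 and 2554 (adjusted p = 0.526), neither past the test. Genes under BCR-ABL and STAT5 had 6 higher and 6 lower of 29 (3 to 7 and 1 to 4). Feedback inhibitors were higher, CISH with 2283 and 2276 reads against 3282 and 3353 (0.51 ± 0.06, adjusted p = 1.46e-05) and SOCS1 with 208 and 269 reads against 367 and 366 (0.59 ± 0.12), and the kinase JAK2 was lower, with 3004 and 2703 reads against 2323 and 2158 (-0.38 ± 0.07).

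Among other transcription factors, families differed in balance. HOX and other homeobox genes had 12 of 64 higher and 3 lower (7 to 14 higher with 1 library left out), KLF, SP and EGR factors 6 of 22 higher and none lower (5 to 7), and AP-1, ATF and bZIP factors 10 of 46 higher and 2 lower (7 to 13). HOXD8 had 17 and 27 reads against 82 and 74 (1.79 ± 0.28), PBX3 62 and 66 reads against 150 and 191 (1.38 ± 0.18) and SATB1, an organiser of chromatin loops, 35 and 41 reads against 92 and 123 (1.47 ± 0.23). EN1, a homeobox gene of the midbrain, went the other way with the largest fall of any protein-coding gene that met the naming rule, 60 and 72 reads against 17 and 19 (-1.90 ± 0.28, adjusted p = 9.59e-05). SP6 had 84 and 122 reads against 278 and 287 (1.42 ± 0.16), KLF10, induced by TGF-beta, 416 and 397 reads against 590 and 627 (0.55 ± 0.09) and MAF 77 and 52 reads against 146 and 148 (1.16 ± 0.19). MITF, the melanocyte and mast cell factor, was lower, with 815 and 751 reads against 521 and 515 (-0.62 ± 0.08, adjusted p = 4.39e-05). By contrast the largest family, the ZNF zinc finger genes, had 29 higher (6.86%) and 22 lower (5.2%) of 423. These shares lay under those of all protein-coding genes tested, 10.8% and 9.12%, and of all genes tested, 8.73% and 7.73%. The median of the family was 0.02, and 0.0030 to 0.03 with 1 library left out.

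Chromatin lists held calls in both directions, and the balance of some depended on the fit. With the GC and length trend removed, remodelers had 1 higher and 12 lower, and lysine methyltransferases and demethylases 3 and 13. In the fit with all libraries remodelers had 4% higher and 6% lower, and the lysine enzymes 7.84% each. The shares of all protein-coding genes tested were 10.8% and 9.12%. Remodelers had 2 higher and 3 lower of 50 (0 to 3 and 0 to 9), and lysine methyltransferases and demethylases 4 and 4 of 51 (0 to 7 and 0 to 9). Polycomb proteins, which keep genes silent through histone marks, had 3 higher and 5 lower of 35 (0 to 5 and 2 to 6). EED, a core subunit of Polycomb repressive complex 2, had 1413 and 1235 reads against 829 and 889 (-0.65 ± 0.07, adjusted p = 5.17e-06), and JARID2, its cofactor, 2474 and 2323 reads against 1911 and 2036 (-0.31 ± 0.06). DNA methylation and TET genes had 4 higher and 2 lower of 19 (3 to 5 and 1 to 3). TET1, which oxidises 5-methylcytosine, had 1038 and 914 reads against 633 and 624 (-0.66 ± 0.08, adjusted p = 2.31e-05) while TET3 was higher, with 1444 and 1394 reads against 1779 and 1858 (0.33 ± 0.06). DNMT1 had 6730 and 6391 reads against 6762 and 6692 and did not pass the test (adjusted p = 0.956).

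Cell cycle genes changed in single members rather than as a class. CDKN1A, the CDK inhibitor p21, had 664 and 716 reads against 1413 and 1471 (1.03 ± 0.08, adjusted p = 2.94e-08), and CDC25A, the phosphatase that activates CDK2, 1181 and 1085 reads against 625 and 645 (-0.86 ± 0.07, adjusted p = 1.6e-07). Neither gene overlapped between the groups, but the 2 do not stand for inhibitors and activators in general. In the fit with all libraries the CDK inhibitor CDKN1C was lower (-0.26 ± 0.07, adjusted p = 0.0106 in edgeR's test). The cyclin gene CCND1 was higher (0.45 ± 0.09, adjusted p = 0.00163 in the same test). The list of cyclins, CDKs and CDK inhibitors had 7 higher and 5 lower of 52. E2F1 had 555 and 648 reads against 852 and 871 (0.49 ± 0.09), RRM2, a subunit of ribonucleotide reductase and an E2F target, 2162 and 2037 reads against 2913 and 3010 (0.47 ± 0.06, adjusted p = 3.3e-05) and MYBL2 2644 and 2790 reads against 3384 and 3661 (0.34 ± 0.07). Mitosis genes had 5 of 72 higher and none lower (1 to 6 higher with 1 library left out, 1 without either shMETTL3 library), but 15 were lower without shCTR replicate 2. Their median was -0.03, and 0.04 without shCTR replicate 1. DNA replication genes had 10 higher and 5 lower of 61 (2 to 11 and 1 to 7). K562 cells are known to lack functional p53, and of 28 p53 target genes 3 were higher and 3 lower (2 to 4 and 2 to 3). TP53INP1 had 267 and 242 reads against 359 and 367 (0.48 ± 0.11), while ZMAT3 and CMBL were lower, with 764 and 644 reads against 511 and 511 (-0.49 ± 0.09) and 6365 and 6098 reads against 4332 and 4766 (-0.48 ± 0.06, adjusted p = 1.43e-05). MCL1, which protects from apoptosis, had 5428 and 4976 reads against 6801 and 7390 (0.42 ± 0.06, adjusted p = 7.47e-05).

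In proteostasis, cytosolic chaperones and proteasome subunits held more members lower than higher, and lysosomal genes more higher than lower. In the highest quintile of CPM, which held 34 of the 80 cytosolic chaperones tested, 20.6% of protein-coding genes were lower. ER chaperones and unfolded protein response genes had 1 higher and 3 lower of 52. That is 5.77% lower, beside the 9.12% of all protein-coding genes tested. Autophagy genes had 4 higher and 4 lower of 48. Cytosolic chaperones had 13 of 80 lower and 2 higher (3 to 17 lower with 1 library left out), with ST13, a cochaperone of HSP70, at 7289 and 6897 reads against 5526 and 5638 (-0.37 ± 0.06, adjusted p = 0.000128) and FKBP4, a cochaperone of HSP90, at 2195 and 2143 reads against 1749 and 1564 (-0.42 ± 0.07). Proteasome subunits had 8 of 48 lower and none higher (1 to 9 lower), with 5 of 30 lower in the highest quintile of CPM, against 20.6% of other genes there. Lysosomal hydrolases and membrane proteins had 17 of 69 higher and 4 lower (9 to 16 higher), and subunits of the vacuolar ATPase, which acidifies lysosomes, 5 of 21 higher and none lower (3 to 5). IDS, iduronate sulfatase, had 268 and 240 reads against 543 and 496 (1.00 ± 0.10, adjusted p = 1.92e-06), SMPD1, acid sphingomyelinase, 291 and 327 reads against 484 and 534 (0.69 ± 0.10) and ATP6V0E2 211 and 226 reads against 436 and 465 (1.01 ± 0.11, adjusted p = 3.07e-06). These 3 were higher in both shMETTL3 libraries. The pathway of ATF4, which answers amino acid shortage, had 15 of 46 higher and 2 lower (8 to 15 higher), with 10 of 34 members of the highest quintile of CPM higher against 5.91% of other genes there. Beside GDF15, PCK2, a mitochondrial enzyme of gluconeogenesis, had 2986 and 2918 reads against 4113 and 4354 (0.49 ± 0.06, adjusted p = 1.57e-05) and the hormone ADM2 573 and 653 reads against 832 and 923 (0.49 ± 0.09). ATF4 itself, with 14145 and 14185 reads against 13348 and 14036, and ASNS, its classic target, with 19515 and 16820 reads against 17512 and 17599, did not pass the test (adjusted p = 0.341 and 0.407).

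Metabolic lists gave mixed counts, with clear single genes. Purine and pyrimidine synthesis had 9 of 39 lower and 1 higher (1 to 10 lower with 1 library left out), led by PPAT, the committed step of purine synthesis, with 2268 and 2038 reads against 1734 and 1750 (-0.33 ± 0.07, adjusted p = 0.00149). MAT2A, which makes the methyl donor S-adenosylmethionine and whose RNA is a known substrate of METTL16, had 14006 and 12368 reads against 10588 and 10242 (-0.37 ± 0.06, adjusted p = 0.000272), and METTL16 had 879 and 774 reads against 887 and 701 (adjusted p = 0.606). Of 33 cholesterol genes 6 were lower and 2 higher (2 to 9 lower, 3 without shCTR replicate 1). Among them LSS, lanosterol synthase, had 5295 and 5259 reads against 4014 and 4219 (-0.39 ± 0.06). Glycolysis and hypoxia genes had 7 higher and 6 lower of 43 (3 to 7 and 2 to 6), with PGK1, a glycolytic kinase, at 6174 and 5967 reads against 4416 and 4546 (-0.47 ± 0.06, adjusted p = 1.57e-05) and NDRG1, a hypoxia-induced gene, at 229 and 257 reads against 439 and 448 (0.84 ± 0.11). Antioxidant and NRF2 genes had 11 of 48 lower and 4 higher (2 to 11 lower), including PRDX1 with 4670 and 4433 reads against 3736 and 3661 (-0.33 ± 0.06, adjusted p = 0.000838) and SOD1 with 6576 and 6579 reads against 5436 and 5642 (-0.28 ± 0.06). Genes of fatty acid synthesis, elongation and desaturation were divided, with 6 higher and 4 lower of 30, at a median of -0.07. Among the higher members were ELOVL2 with 113 and 105 reads against 248 and 271 (1.22 ± 0.14) and ELOVL7 with 1319 and 1154 reads against 1738 and 1785 (0.48 ± 0.07, adjusted p = 7.5e-05). ALDH1A2, which makes retinoic acid, had the largest fall among the 59 aldehyde dehydrogenase, aldo-keto reductase and cytochrome P450 genes tested, with 798 and 765 reads against 400 and 358 (-1.07 ± 0.09, adjusted p = 9.31e-08).

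The largest rises and falls came from genes of few reads. TMEM45A, a membrane protein, had 13 and 10 reads against 87 and 76 (2.78 ± 0.29, adjusted p = 2.43e-06) and VEPH1, a pleckstrin homology protein, 14 and 10 reads against 77 and 86 (2.72 ± 0.29). C4B, a complement component, had 19 and 30 reads against 116 and 144 (2.37 ± 0.25), a value shared with the near-identical C4A because reads of the copies cannot be told apart. IFIT2, an interferon-induced protein, had 48 and 44 reads against 212 and 240 (2.26 ± 0.18). TMPRSS3, a transmembrane serine protease, fell with its neighbour UBASH3A, with 80 and 86 reads against 21 and 25 (-1.88 ± 0.24, adjusted p = 1.88e-05). The 10 called genes of highest CPM, by contrast, were all lower in the fit with all libraries, by -0.16 to -0.30 on the log2 scale, and 7 of them are ribosomal proteins. ESRP1, an epithelial splicing regulator chosen after its values were seen, was the only called gene with a group at 0, with 0 reads in both shCTR libraries and 18 and 15 in the shMETTL3 libraries (adjusted p = 0.000357), at least 5.40-fold higher against a floor of 3 reads per library. With no shCTR read, ESRP1 could pass the filter on low counts only through other libraries, so its call is given as a description only.

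Noncoding classes held fewer calls than protein-coding genes. Of 12525 protein-coding genes tested 1351 were higher (10.8%) and 1142 lower (9.12%). Of 2487 long noncoding RNA genes 94 were higher (3.78%) and 92 lower (3.7%), and of 1337 pseudogenes 40 were higher and 50 lower. Processed pseudogenes, which are copies of messenger RNAs and can take reads from their parents, had 29 lower and 13 higher of 709, at a median of -0.10. Sense intronic RNAs had a median of -0.18 over 196 genes (-0.11 without shCTR replicate 1) and snoRNAs of -0.31 over 30, with 1 called (-0.18 without shCTR replicate 1 and -0.47 without shMETTL3 replicate 1). The 882 tested identifiers that the authors placed outside the annotation had 49 higher and 70 lower, and carry no name.

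LINC00861 was the most abundant of the noncoding RNAs with the largest falls, with 4521 and 3394 reads against 1761 and 1684 (-1.23 ± 0.09, adjusted p = 3.59e-08). The pseudogene SOD1P3, whose annotated start lies beside it on the same strand, had 1297 and 1182 reads against 475 and 531 (-1.33 ± 0.08, adjusted p = 1.24e-09), so the values of these neighbours may share reads. Its parent SOD1 changed less, as given above. FLJ36000 had 47 and 48 reads against 161 and 176 (1.79 ± 0.19) and LINC00467 174 and 182 reads against 286 and 322 (0.74 ± 0.12). The long noncoding RNA PVT1 was lower, with 345 and 404 reads against 248 and 244 (-0.64 ± 0.11, adjusted p = 0.000778). NEAT1, the scaffold of paraspeckles, had 12085 and 11068 reads against 11798 and 12629 and did not pass (adjusted p = 0.607). 3 noncoding genes among the largest changes had 1 library far above the other 3: ENSG00000224698 had 39 and 347 reads against 33 and 26, CYP4F59P 69 and 44 reads against 70 and 393 and the pseudogene IKBKGP1 27 and 30 reads against 348 and 39, with adjusted p-values of 0.432, 0.618 and 0.508 without that library.

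The level of a gene went with its direction. In quintiles of mean CPM of protein-coding genes, the share called higher fell from 14.5% in the lowest to 6.23% in the highest quintile, the share lower rose from 1.44% to 20.6%, and the median log2 fold change went from 0.25 to -0.07. CPM is not divided by length, so the quintiles mix expression and length. The trend kept its size without shCTR replicate 1, at 0.25 and -0.06. Of the 362 genes called higher in the lowest quintile, 82 had under 10 reads in both shCTR libraries and could pass the filter only through other libraries. Among the 1825 genes of that quintile with at least 10 reads in each of the 4 libraries, 257 were higher and 28 lower, at a median of 0.19.

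GC content went with direction too, to a lesser extent without shCTR replicate 1. The median moved from -0.08 in the lowest to 0.13 in the highest quintile of GC content, from -0.02 to 0.05 without that library, and from 0.00035 to 0.0046 with the trend removed. Chromosome 19, rich in GC, had 147 genes higher and 26 lower, and 114 and 96 with the trend removed. Exon number was compared because m6A is known to be kept away from exon junctions. Single-exon genes had a median of 0.06 and genes with over 20 exons of -0.03, but without shCTR replicate 1 the latter was 0.02, and the difference between them ran from -0.19 to 0.03 over the 4 pairs of a shMETTL3 and a shCTR library, a range of mixed sign.

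**Figure D4:**
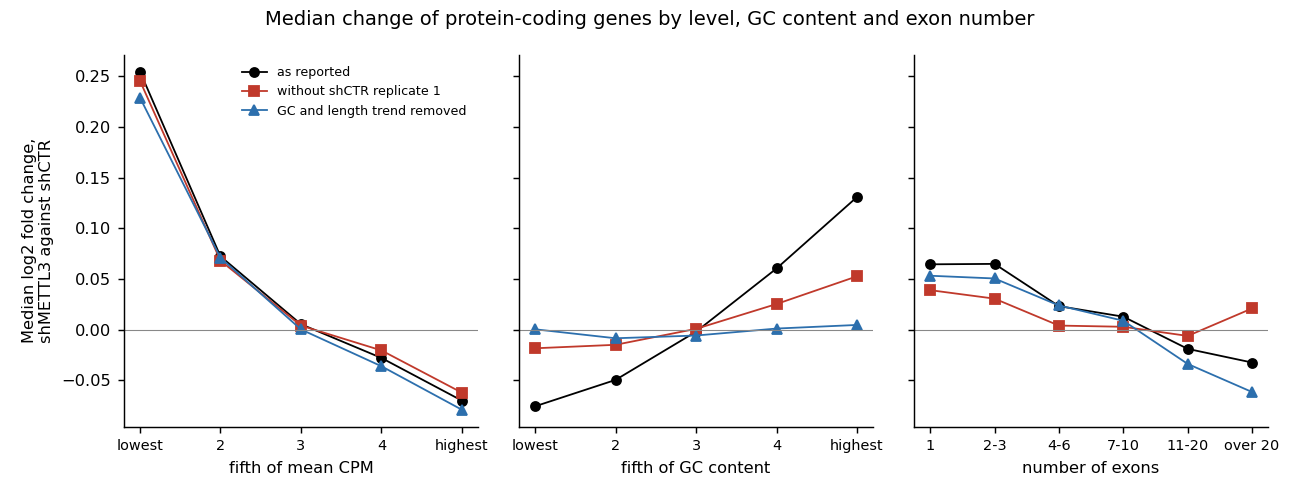
Median log2 fold change of protein-coding genes (vertical axis) in quintiles of mean CPM (left), quintiles of GC content (middle) and classes of exon number (right), in the fit with all libraries (black circles), without shCTR replicate 1 (red squares) and with the GC and length trend removed (blue triangles). The slope over CPM, from 0.25 to -0.07, is alike in all 3, that over GC content, from -0.08 to 0.13, is flat once the trend is removed, and the last exon class changes sign without shCTR replicate 1.

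One long stretch of the genome stood out after the values were seen, and it is described with no test. On the long arm of chromosome 11 from 75 Mb on (GRCh38), 58 of 169 protein-coding genes with a mean CPM over 5 were lower (34.3%) and 6 higher, at a median of -0.15. On the rest of that chromosome 52 of 415 were lower and 56 higher, and on all other chromosomes 999 of 9503 were lower (10.5%) at a median of -0.01. The median over the stretch was -0.16 and -0.19 for the 2 shMETTL3 libraries against shCTR replicate 1 and -0.12 and -0.13 against shCTR replicate 2. Without shCTR replicate 1, 41 were lower and 5 higher at a median of -0.10, and with the GC and length trend removed 58 and 8 at -0.12. Without shMETTL3 replicate 1 or 2, 26 and 24 were lower, at a median of -0.16 in both. In windows of 10 Mb with at least 8 such genes, all 5 windows from 80 Mb on had a median under -0.1, against 52 of 286 windows in all, and with the trend removed 4 of the 5 against 12 of 286.

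Genes of this stretch appear in several of the lists above, among them EED, FZD4 and SERPINH1. PICALM, a clathrin adaptor, had 8267 and 7452 reads against 4769 and 4631 (-0.77 ± 0.06, adjusted p = 6.29e-08), TAF1D, a factor of ribosomal RNA transcription, 4756 and 4049 reads against 3117 and 2639 (-0.64 ± 0.08) and TMEM123 4515 and 3903 reads against 2842 and 2781 (-0.61 ± 0.07). The checkpoint kinases ATM, with 3272 and 2889 reads against 2343 and 2283 (-0.44 ± 0.07), and CHEK1, with 2442 and 2161 reads against 1777 and 1920 (-0.35 ± 0.07), lie there too, as does SDHD, a subunit of succinate dehydrogenase, with 1944 and 1842 reads against 1438 and 1573 (-0.36 ± 0.07). Exceptions were SESN3, with 122 and 101 reads against 188 and 216 (0.83 ± 0.15), PAK1, with 203 and 217 reads against 348 and 305 (0.61 ± 0.12), and IL10RA, with 394 and 425 reads against 648 and 589 (0.57 ± 0.09). Other genes of the stretch did not hold: MRE11, a DNA repair nuclease, had 2168 and 1891 reads against 1773 and 1819 (-0.20 ± 0.07, adjusted p = 0.0439, and 0.231, 0.183 and 0.202 without shCTR replicate 1, shMETTL3 replicate 1 or shMETTL3 replicate 2). KMT2A, a histone methyltransferase, had 5508 and 4403 reads against 4438 and 4434 (adjusted p = 0.0905) and CBL, a ubiquitin ligase, 2557 and 2144 reads against 2441 and 2482 (adjusted p = 0.761), neither past the test. PICALM, TAF1D, TMEM123, SESN3, PAK1, IL10RA, MRE11, KMT2A and CBL were chosen after their values were seen.

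**Figure D5:**
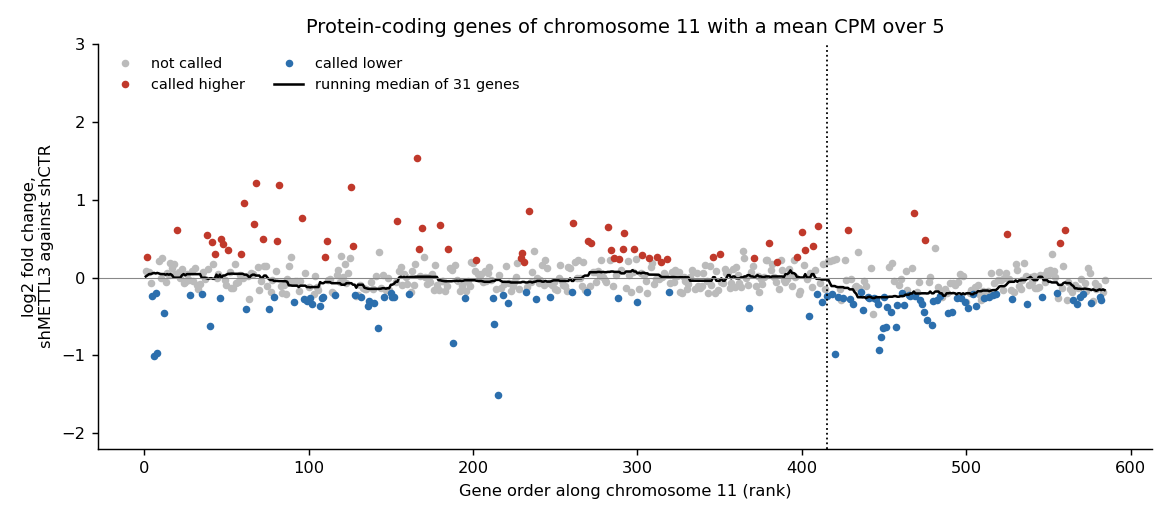
log2 fold change of 584 protein-coding genes of chromosome 11 with a mean CPM over 5 (vertical axis) in their order along the chromosome (horizontal axis, rank), with called genes in red (higher) or blue (lower), a running median over 31 genes (black line) and a dotted line at 75 Mb. Right of that line, 58 of 169 genes are lower and 6 higher, and the running median is mostly below 0.

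Members of smaller neighbourhoods shared a direction as well, seen after the values were known. Beside MS4A3 on chromosome 11, outside that stretch, the related genes MS4A4A, with 63 and 49 reads against 7 and 20 (-2.07 ± 0.35, adjusted p = 0.0004), and MS4A6A, with 16 and 21 reads against 3 and 8 (-1.76 ± 0.53, adjusted p = 0.0271, and 0.11 and 0.211 without shCTR replicate 2 or shMETTL3 replicate 1), were lower. COL6A2, which pairs with COL6A1 in collagen VI and lies beside it on chromosome 21, had 15 and 3 reads against 40 and 40 (2.11 ± 0.44, adjusted p = 0.00233). HBZ, HBA2 and HBA1, neighbours in the alpha globin cluster of chromosome 16, had 110 and 111 reads against 201 and 258 (1.02 ± 0.16), 337 and 365 reads against 604 and 708 (0.87 ± 0.11) and 528 and 704 reads against 1008 and 924 (0.62 ± 0.11), all higher, with the reads of the near-identical HBA1 and HBA2 not separable. HBQ1, the theta globin next to HBA1, was an exception, with 673 and 757 reads against 664 and 667 (-0.13 ± 0.09, adjusted p = 0.314).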

How the data were processed

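Poly(A)-selected RNA of the 4 K562 libraries compared, and of the 2 shMETTL14 libraries, had been turned into a table of read counts per gene that the authors deposited without normalization, with HTSeq 0.6.1 and hg38 named in the submitters' processing notes. The aligner, annotation release and strand setting are not given in the sources used here, so reads of a gene and its antisense partner cannot be told apart. Identifiers were matched to GENCODE 29 symbols, biotypes and GRCh38 positions, and 57055 of the 60675 Ensembl identifiers were in that release. The other 986 identifiers were the authors' own and carry no name.

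Counts were fitted in R 4.3.3 with edgeR 4.0.16 (quasi-likelihood test, TMM factors, filterByExpr with a minimum count of 10, Benjamini-Hochberg adjusted p under 0.05), in 1 fit of all 6 libraries and 3 groups with the contrast of shMETTL3 against shCTR. Errors are standard errors, with 2 libraries per group and totals of 19292574 to 20115304 counts, and the script was tested on simulated data. Counts of replicate libraries varied beyond sampling noise (mean chi-square statistic over genes between 2.59 and 5.51). Levels are TMM-scaled CPM, and a fold against a group at 0 was bounded with a floor of 3 reads per library. A trend of each library's log2 level on GC content and transcript length, available for 94.2% of genes tested, was removed as an alternative (mgcv 1.9.3). DESeq2 1.42.0, other size factors, library size alone, no filter, only 4 libraries, a replicate block, a stricter threshold and each library left out were the other alternatives.

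Genes were named if called, with at least 10 reads in each of the 4 libraries and no overlap in CPM: the 10 largest rises and falls among protein-coding genes, 5 and 5 among long noncoding RNA genes and 3 and 3 among pseudogenes, up to 4 rises, 4 falls and 2 abundant genes per list, and the 10 called genes of highest CPM. Key genes of each list were named whatever their values, and of all these the text gives mainly genes called with each library left out, and a few named genes are not reported here. Lists and members were chosen with earlier results of these data known and were described by counts and medians with no set test. The shMETTL14 comparison shares the control libraries and is not described.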

Additional observations from a re-analysis of the deposited data

How the results depend on the processing

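The number of called genes was 2912 in edgeR's quasi-likelihood fit and between 2185 and 3443 with other size factors, no filter, only the 4 libraries compared or the GC and length trend removed. It was 1881 with the DESeq2 Wald test (873 higher, 1008 lower, of 14943 with an adjusted p), 1439 at an adjusted p under 0.01, and 1144 to 3504 with 1 library left out, lowest without shMETTL3 replicate 2. Lists with more members lower than higher numbered 35, and 23 with library size alone, which shifts the median of all genes by 0.06. A replicate block gave 3264 calls and 3998 together with the GC and length correction, and the block changed the call of none of the 635 called genes that were named by the rule. The correlations of the deviations of same-numbered libraries between groups were 0.09, -0.0061 and -0.02, so the labels' numbers were not taken as pairs. METTL3 stayed lower throughout, from -0.95 to -0.78 with 1 library left out. No named called gene changed direction under any alternative, while 129 of 630 lost their call with DESeq2 and 315 of 635 without shMETTL3 replicate 2. Key genes that did not pass the test changed sign in some settings, and the cause was not tested. DNMT1 was -0.069 with the GC and length trend removed, with or without the block, and -0.016 to 0.030 with 1 library left out. FASN was 0.042 with library size alone and -0.10 to 0.071 with 1 library left out. HBG2 was 0.054 with library size alone, 0.066 with the trend removed, with or without the block, and -0.047 to 0.049 with 1 library left out. YTHDF2 was 0.046 with library size alone, 0.0045 with the trend removed, 0.0044 with the block added, and -0.042 to 0.022 with 1 library left out. With 1 library left out, ASNS ranged from -0.16 to 0.010, EIF2AK2 from -0.029 to 0.050, HBG1 from -0.16 to 0.65, HSPA5 from -0.45 to 0.041, ITGAM from -0.36 to 0.66 and METTL16 from -0.28 to 0.089. A library left alone in its group was assumed to vary like the other groups. The fits that leave out a library for each list, the count of genes called in all of them, the chromosome 11 stretch and the stricter filter in the lowest quintile were chosen after seeing the data. With 2 libraries per group, small changes of genes with few reads were not detectable at this depth.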

Other observations

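Single genes of vesicle traffic, second messengers and scaffolds changed further, and those given with their reads stayed called with each library left out. The RAB and ARF list was near the background, with 11.3% higher and 7.26% lower. The shares of all protein-coding genes tested were 10.8% and 9.12%. RAB and ARF GTPases with their regulators had 14 higher and 9 lower of 124 (4 to 14 and 4 to 11 with 1 library left out). RAB3B and RAB3D, GTPases of regulated exocytosis, had 23 and 17 reads against 114 and 67 (2.14 ± 0.30, adjusted p = 5.4e-05 in edgeR's quasi-likelihood test) and 49 and 58 reads against 137 and 156 (1.42 ± 0.19), while RAB3GAP1, a subunit of their GTPase-activating complex, had 3901 and 3379 reads against 2934 and 2973 (-0.33 ± 0.07). Spectrins, septins, ankyrins and plakins had 11 higher and 10 lower of 63 (4 to 10 and 2 to 15), with the membrane anchors ANK2 at 19 and 10 reads against 51 and 47 (1.72 ± 0.33) and ANK3 at 104 and 91 reads against 237 and 228 (1.22 ± 0.14). Adhesion proteins of the immunoglobulin superfamily had 7 higher and 3 lower of 34 (4 to 7 and 0 to 3), among them LRFN3, a synaptic adhesion protein, with 15 and 18 reads against 46 and 59 (1.63 ± 0.30, adjusted p = 0.000907). GABA receptor subunits went apart, GABRQ with 25 and 38 reads against 85 and 66 (1.23 ± 0.26) and GABRG1 with 1087 and 960 reads against 692 and 714 (-0.57 ± 0.08).

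In immunity, cytokines, chemokines and their receptors had 13 higher and 3 lower of 57 (6 to 11 and 0 to 3, with 6 and 1 without shCTR replicate 1). NLRC5, which switches on MHC class I genes, had 33 and 41 reads against 115 and 126 (1.67 ± 0.23, adjusted p = 5.03e-05). OAS3, a sensor of double-stranded RNA, had 264 and 276 reads against 504 and 491 (0.85 ± 0.10) and APOBEC3G, a cytidine deaminase, 146 and 116 reads against 206 and 238 (0.73 ± 0.14). S100 proteins and annexins had 1 higher and 4 lower of 18 (0 to 1 and 2 to 5), with ANXA3 at 235 and 255 reads against 163 and 118 (-0.83 ± 0.15) and ANXA1 at 14174 and 12951 reads against 11112 and 11317 (-0.30 ± 0.05). Cancer-testis antigens did not move together: MAGEC2 had 809 and 742 reads against 1088 and 1061 (0.44 ± 0.07) and PAGE1 63 and 42 reads against 19 and 20 (-1.45 ± 0.30, adjusted p = 0.00218). The transferrin receptor TFR2, an iron sensor of red cell precursors, had 3510 and 3692 reads against 2544 and 2567 (-0.52 ± 0.06) and EPCAM, an epithelial surface protein that K562 cells carry, 1083 and 1042 reads against 728 and 733 (-0.57 ± 0.07, adjusted p = 2.12e-05).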
